A study of Mus musculus with 6 samples.

Results

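The genes described here mark 3 parts of the mouse brain that lie next to or near the hippocampus, namely the thalamus with the habenula, the striatum and the neocortex, and they were read to see how much signal of neighbouring tissue each hippocampal array held. They come from a list of 38 gene symbols, of which 32 had a probe set that the platform annotation pairs with that symbol alone, 13 for thalamus and habenula, 8 for striatum and 11 for neocortex, among 22180 genes tested. Lef1os1, Calb2os, Adora2a, Rarbos, Fam84b and Ppp1r1b were not analysed here. Of these, Ppp1r1b and Fam84b (now Lratd2) were left out because probe sets annotated with more than 1 symbol were not used. RNA came from hippocampi of 3 Ahr-KO mice, which lack the aryl hydrocarbon receptor, and of 3 wild-type mice, with 1 whole-transcript array for each mouse. The hippocampi were taken from hemibrains. For the mice, the age, strain, sex and structure of the deleted allele were not given. The values are log2 signals. As a check of the labels, Ahr read 6.62, 6.91 and 6.74 in Ahr-KO and 7.68, 7.50 and 7.44 in wild type, a difference of -0.78 ± 0.10 (SE; limma adjusted p = 0.320), although it is not given which part of the gene its probe set reads. Genes of the hippocampal fields were present, with 15 of 16 averaging above the median gene. Among them were Prox1 of dentate granule cells (9.48 to 10.02) and Neurod6 of pyramidal neurons (10.13 to 10.32). Of the 11 neocortical members only 2 averaged below the median gene, so such levels do not single out the hippocampus.

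The thalamus relays sensory and motor signals to the cortex, and the habenula beside it links the forebrain to midbrain monoamine centres. The striatum is built mostly from spiny projection neurons, a direct-pathway class with the D1 dopamine receptor and an indirect-pathway class with the D2 receptor. The neocortex is layered, and its layers are told apart by transcription factors such as CUX2 in the upper layers, FEZF2 and ETV1 in layer 5, and TLE4 and FOXP2 in layer 6. Markers of this kind are not absent from the hippocampal region itself. Drd2 is made by mossy cells of the dentate hilus, Lamp5 by a class of interneurons, and several layer markers by neurons of the subiculum and entorhinal cortex.

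The receptor binds DNA as a dimer with ARNT at response elements whose core is GCGTG. The 250 bases before the transcription start are shown for the 3 members with the lowest unadjusted p, Tnnt1, Gbx2 and Vwc2l, and for Vgll3, the member with the widest range over the arrays. They are RefSeq promoters of GRCm38.p6, written from 5′ to 3′ on the gene's strand, with matches to GCGTG on either strand in capitals:
Tnnt1, minus strand, chr7:4515976-4516225: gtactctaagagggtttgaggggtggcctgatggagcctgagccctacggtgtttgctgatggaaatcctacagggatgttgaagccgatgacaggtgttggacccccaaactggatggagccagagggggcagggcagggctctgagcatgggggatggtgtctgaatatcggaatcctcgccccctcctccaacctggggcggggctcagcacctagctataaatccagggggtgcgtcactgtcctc
Gbx2, minus strand, chr1:89931177-89931426: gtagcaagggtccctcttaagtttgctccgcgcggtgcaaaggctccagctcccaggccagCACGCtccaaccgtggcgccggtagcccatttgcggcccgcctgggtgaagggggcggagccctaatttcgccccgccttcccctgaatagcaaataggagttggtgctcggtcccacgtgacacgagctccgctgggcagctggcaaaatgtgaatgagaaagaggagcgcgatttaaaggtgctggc
Vwc2l, plus strand, chr1:70725465-70725714: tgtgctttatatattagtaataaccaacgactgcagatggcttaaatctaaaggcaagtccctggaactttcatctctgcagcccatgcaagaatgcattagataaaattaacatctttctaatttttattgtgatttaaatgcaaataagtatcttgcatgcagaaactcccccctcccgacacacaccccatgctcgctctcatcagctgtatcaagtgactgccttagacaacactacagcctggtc
Vgll3, plus strand, chr16:65814939-65815188: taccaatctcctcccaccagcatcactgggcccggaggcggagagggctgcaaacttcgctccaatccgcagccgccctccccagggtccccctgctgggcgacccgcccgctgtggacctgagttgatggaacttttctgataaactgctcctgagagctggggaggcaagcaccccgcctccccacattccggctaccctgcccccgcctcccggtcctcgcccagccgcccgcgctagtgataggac
Of these 4 windows that of Gbx2 held 1 match, and the other 3 held 0. Promoters were listed for 29 of the 32 measured members, and 12 of their 36 windows (33.3%) held the core, against 28.2% of all 32851 windows in the table. The share among the members was thus close to that of promoters in general, and a match is a description of letters, not of a site.

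No member passed the test between genotypes across all genes. With limma, 0 of the 32 and 0 of the 22180 genes (0%) had an adjusted p under 0.05, and the lowest adjusted p of a member was 0.782. At an unadjusted p under 0.05 there were 3 members, Tnnt1 and Gbx2 with higher values in Ahr-KO and Vwc2l with lower ones, against 6.18% of all genes, 3.53% higher and 2.65% lower. The genotypes' values did not overlap for 3 members, against 11.9% of all genes. These were Tnnt1 and Drd2 with every Ahr-KO array above (6.18% of all genes) and Gpr6 with every Ahr-KO array below (5.75%). Both counts are near the background. The mean was higher in Ahr-KO for 15 members and lower for 17, beside a higher mean in 50.7% of all genes. The median difference, Ahr-KO minus wild type, was 0.01 log2 for thalamus and habenula, 0.01 for striatum and -0.11 for neocortex, beside 0.00 for all genes. In whole tissue, fewer cells of a type and less RNA per cell cannot be told apart.

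**Figure D1:**
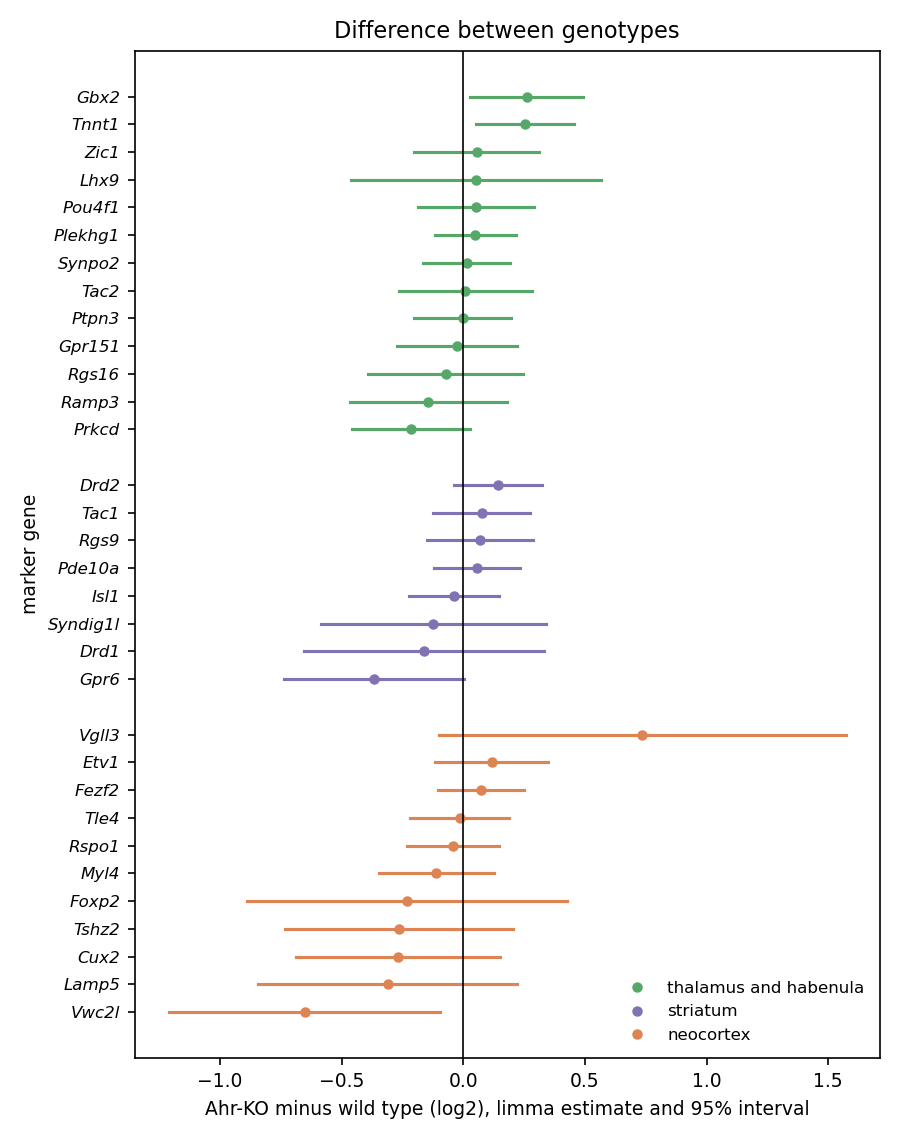
Difference between genotypes (log2, Ahr-KO minus wild type, horizontal axis) for the 32 marker genes, as limma's estimate with its 95% interval from 3 Ahr-KO and 3 wild-type arrays. The intervals of Tnnt1, Gbx2 and Vwc2l leave out 0 before adjustment over all genes, and the widest interval is that of Vgll3.

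Among thalamus and habenula genes 2 of 13 had an unadjusted p under 0.05, both higher in Ahr-KO, against 3.53% of all genes higher. Tnnt1, a slow-muscle troponin T used as a marker of thalamic relay nuclei, read 5.93, 5.93 and 5.69 in Ahr-KO and 5.63, 5.61 and 5.55 in wild type. All 3 Ahr-KO arrays stood above all 3 wild-type arrays, by a narrow margin for Ahr-KO array 3. The difference was 0.25 ± 0.09 log2 (SE; 95% interval 0.05 to 0.45), or 1.19-fold (limma adjusted p = 0.782). Gbx2, a homeobox factor that specifies thalamic neurons, read 5.26, 5.51 and 5.56 in Ahr-KO and 5.16, 5.10 and 5.29 in wild type. Ahr-KO array 1 lay below wild-type array 3, so the groups overlapped, and the difference was 0.26 ± 0.10 (SE; limma adjusted p = 0.797). A second Gbx2 probe set differed by 0.14 ± 0.13 (SE), and the mean of both probe sets by 0.20 (unadjusted p = 0.0979 with limma). The Gbx2 difference ran from 0.20 without Ahr-KO array 3 to 0.35 without Ahr-KO array 1, and its unadjusted p was 0.071 after quantile normalization again. Tnnt1 and Gbx2 averaged below the median gene in both genotypes, as did 5 of the 13 over all arrays.

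The other genes of this region showed mixed directions and small differences. Prkcd, a protein kinase C that is abundant in thalamic relay neurons, read 7.57, 7.82 and 7.92 in Ahr-KO and 7.88, 8.07 and 8.01 in wild type. Its groups overlapped, and it differed in the opposite direction to Tnnt1, at -0.22 ± 0.11 (SE; 95% interval -0.46 to 0.03). Ramp3, a protein that partners with peptide receptors, read 6.49, 6.71 and 6.31 in Ahr-KO and 6.78, 6.37 and 6.80 in wild type. Each genotype held both high and low arrays of Ramp3, and the difference was -0.14 ± 0.14 (SE). Plekhg1, a guanine nucleotide exchange factor, read 7.90, 7.96 and 8.02 in Ahr-KO and 7.86, 7.92 and 7.95 in wild type, a range of 0.16 log2 over all arrays.

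Lhx9, a LIM homeobox factor of the developing thalamus, varied most within a genotype. It read 7.34, 6.65 and 7.16 in Ahr-KO and 6.76, 7.45 and 6.78 in wild type. Ahr-KO arrays 1 and 3 and wild-type array 2 were high and the other 3 low, so the genotypes differed by only 0.05 ± 0.22 (SE). Rgs16, a regulator of G protein signalling, read 7.39, 7.92 and 7.83 in Ahr-KO and 7.89, 7.67 and 7.80 in wild type, with Ahr-KO array 1 apart below the rest. The remaining members were Zic1, a zinc finger factor, Ptpn3, a tyrosine phosphatase, Synpo2, an actin-binding protein, and the habenular genes Tac2 (neurokinin B), Pou4f1 (a POU homeobox factor) and Gpr151 (an orphan receptor). All 6 overlapped between genotypes, and their differences lay between -0.03 for Gpr151 and 0.05 for Zic1. Gpr151 and Pou4f1, which are among the sharpest markers of the habenula, were low on every array, at 4.44 to 4.82 in Ahr-KO and 4.55 to 4.66 in wild type for Gpr151, and at 4.55 to 4.89 in Ahr-KO and 4.57 to 4.76 in wild type for Pou4f1, beside array medians of 6.49 to 6.52.

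**Figure D2:**
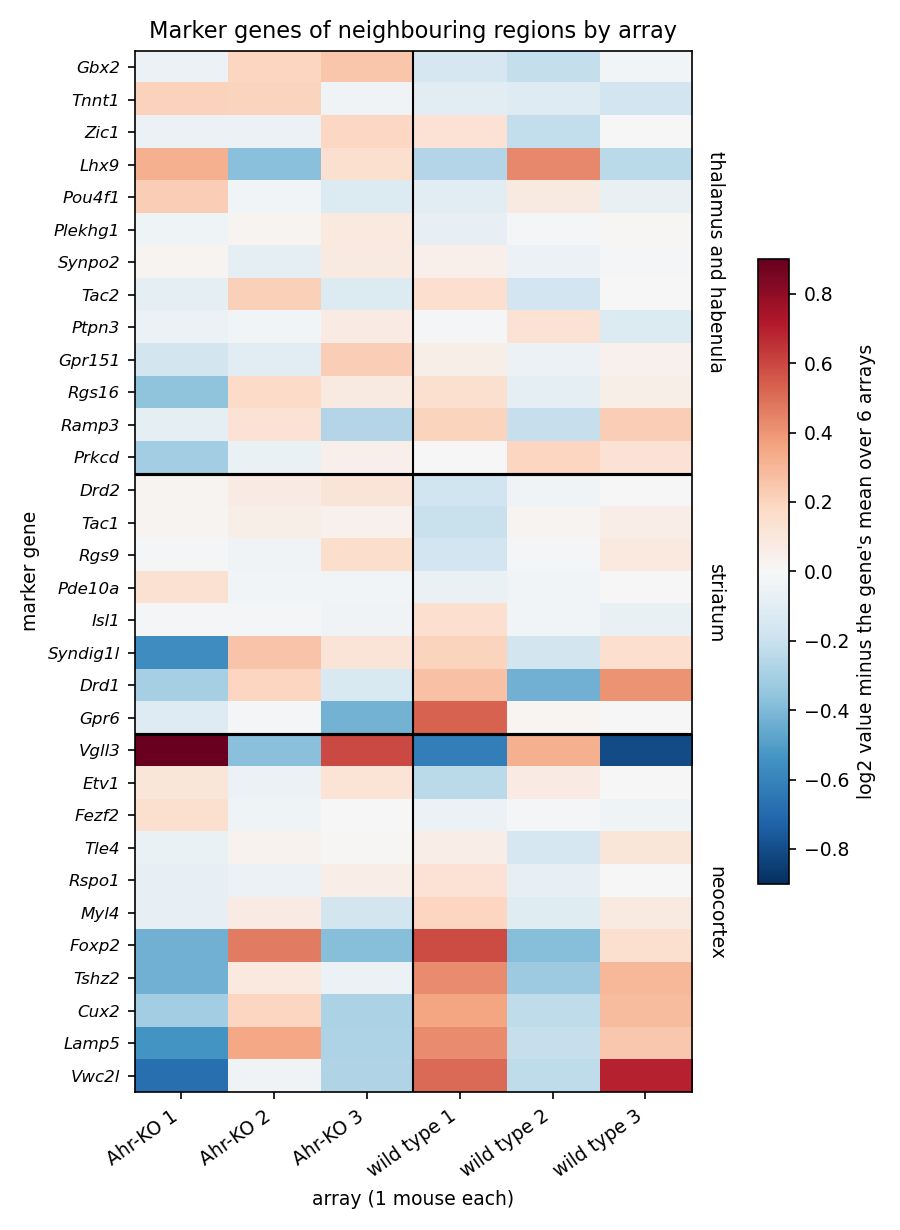
Log2 value minus the gene's mean over the 6 arrays (colour) for the 32 marker genes (rows, grouped by region and ordered by difference) on 3 Ahr-KO and 3 wild-type arrays (columns, 1 mouse each). In most rows of the neocortex block Ahr-KO array 2 and wild-type arrays 1 and 3 share one colour and the other 3 arrays the opposite one, with Vwc2l, Tle4, Fezf2 and Rspo1 as exceptions, while the thalamus and striatum blocks show no such division over most of their genes.

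Striatal genes had 0 of 8 members at an unadjusted p under 0.05 with limma, and they went both ways. Over all arrays 5 of the 8, among them Gpr6, Drd1 and Drd2, averaged below the median gene. Gpr6, an orphan receptor of indirect-pathway neurons, read 5.73, 5.83 and 5.42 in Ahr-KO and 6.37, 5.86 and 5.85 in wild type. The groups did not overlap, but wild-type arrays 2 and 3 stood only just above Ahr-KO array 2, and wild-type array 1 was far higher. The difference was -0.37 ± 0.16 (SE; limma unadjusted p = 0.0513, adjusted p = 0.808), and -0.20 without wild-type array 1. With limma the unadjusted p of this gene was 0.0314 with array weights and 0.0382 after quantile normalization again. Drd2, the dopamine receptor of the same neurons, read 6.50, 6.55 and 6.59 in Ahr-KO and 6.29, 6.44 and 6.47 in wild type. It did not overlap either, in the opposite direction to Gpr6, with a difference of 0.14 ± 0.08 (SE; limma adjusted p = 0.823).

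Drd1, the receptor of direct-pathway neurons, read 5.83, 6.32 and 5.999 in Ahr-KO and 6.40, 5.70 and 6.54 in wild type. Both the lowest and the highest values belonged to wild type, and the difference was -0.16 ± 0.22 (SE; 95% interval -0.65 to 0.33). Syndig1l, a membrane protein enriched in the striatum, read 6.42, 7.23 and 7.09 in Ahr-KO and 7.18, 6.81 and 7.13 in wild type. Its lowest arrays were Ahr-KO array 1 and wild-type array 2, which were also the lowest for Drd1. Rgs9, which shortens dopamine receptor signalling, read 8.04, 8.02 and 8.21 in Ahr-KO and 7.88, 8.04 and 8.15 in wild type, a difference of 0.07 ± 0.10 (SE). Tac1, the substance P precursor of direct-pathway neurons, read 6.07, 6.09 and 6.07 in Ahr-KO and 5.84, 6.06 and 6.10 in wild type. Wild-type array 1 was the lowest array for Tac1, Rgs9, Drd2 and the phosphodiesterase gene Pde10a, and the highest for Gpr6 and Isl1, a LIM homeobox factor of striatal neurons. Pde10a differed by 0.06 and Isl1 by -0.04.

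Neocortical genes held the widest spread of the 3 regions, and it ran within genotypes. Of 11 members 8 had a lower mean in Ahr-KO, and 1 had an unadjusted p under 0.05, against 6.18% of all genes. Vwc2l, which encodes a secreted protein with a von Willebrand factor C domain, read 7.55, 8.19 and 7.95 in Ahr-KO and 8.73, 7.997 and 8.92 in wild type. Wild-type arrays 1 and 3 were high, and wild-type array 2 lay among the Ahr-KO arrays. The difference was -0.65 ± 0.24 (SE; 95% interval -1.21 to -0.09; limma unadjusted p = 0.0272, adjusted p = 0.797), 1.57-fold lower, and it ran from -0.93 without wild-type array 2 to -0.47 without wild-type array 3. Vgll3, a cofactor of TEAD transcription factors, showed the reverse picture, at 7.57, 6.30 and 7.27 in Ahr-KO and 6.06, 7.002 and 5.88 in wild type. Here Ahr-KO arrays 1 and 3 and wild-type array 2 were high. The difference was 0.74 ± 0.37 (SE; 95% interval -0.10 to 1.57; limma adjusted p = 0.817), and it ran from 0.48 without Ahr-KO array 1 to 1.11 without Ahr-KO array 2.

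In markers of the upper layers Ahr-KO array 2 stood high, beside wild-type arrays 1 and 3. Cux2, a homeobox factor of layers 2 to 4, read 7.08, 7.58 and 7.10 in Ahr-KO and 7.74, 7.16 and 7.67 in wild type. Lamp5, a lysosome-associated membrane protein family member, read 8.57, 9.45 and 8.83 in Ahr-KO and 9.53, 8.90 and 9.35 in wild type. For both genes Ahr-KO array 2 stood with wild-type arrays 1 and 3, and wild-type array 2 with Ahr-KO arrays 1 and 3. The differences between genotypes were -0.27 ± 0.18 for Cux2 and -0.31 ± 0.23 for Lamp5 (SE), and neither had an unadjusted p under 0.05. When 1 array was left out, Cux2 ran from -0.45 without wild-type array 2 (unadjusted p = 0.0221 with limma) to -0.16 without wild-type array 1 (0.457). Lamp5 ran from -0.56 without Ahr-KO array 2 (unadjusted p = 0.0171 with limma) to -0.12 without Ahr-KO array 1 (0.61). Tshz2, a zinc finger and homeobox protein of deep-layer neurons, read 8.59, 9.11 and 8.97 in Ahr-KO and 9.44, 8.69 and 9.32 in wild type (-0.26 ± 0.21, SE). Its difference ran from -0.49 without wild-type array 2 (unadjusted p = 0.014 with limma) to -0.11 without Ahr-KO array 1 (0.603). For these genes the lowest ends came from leaving out an array that stood with the other genotype. An unadjusted p under 0.05 was reached by 6.22% of all genes without wild-type array 2 and by 7.22% without Ahr-KO array 2. A dimmer second Tshz2 probe set differed by -0.16 and had its lowest value on Ahr-KO array 2, so it did not follow the first probe set over the arrays.

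Deep-layer factors were split. Foxp2, a forkhead factor of layer 6, read 5.31, 6.21 and 5.36 in Ahr-KO and 6.33, 5.36 and 5.89 in wild type, with the same 3 arrays high as for Cux2. Fezf2, the factor that specifies layer 5 projection neurons, read 9.75, 9.57 and 9.61 in Ahr-KO and 9.55, 9.59 and 9.57 in wild type, a range of 0.20 log2. Fezf2 and Etv1, an ETS factor of layer 5, had means higher in Ahr-KO by 0.07 ± 0.08 and 0.12 ± 0.10 (SE), and a second Etv1 probe set differed by -0.01. Tle4, a corepressor of layer 6 neurons, differed by -0.01, Myl4, a myosin light chain, by -0.11, and Rspo1, a secreted enhancer of Wnt signalling, by -0.04. These 6 genes all overlapped between genotypes.

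**Figure D3:**
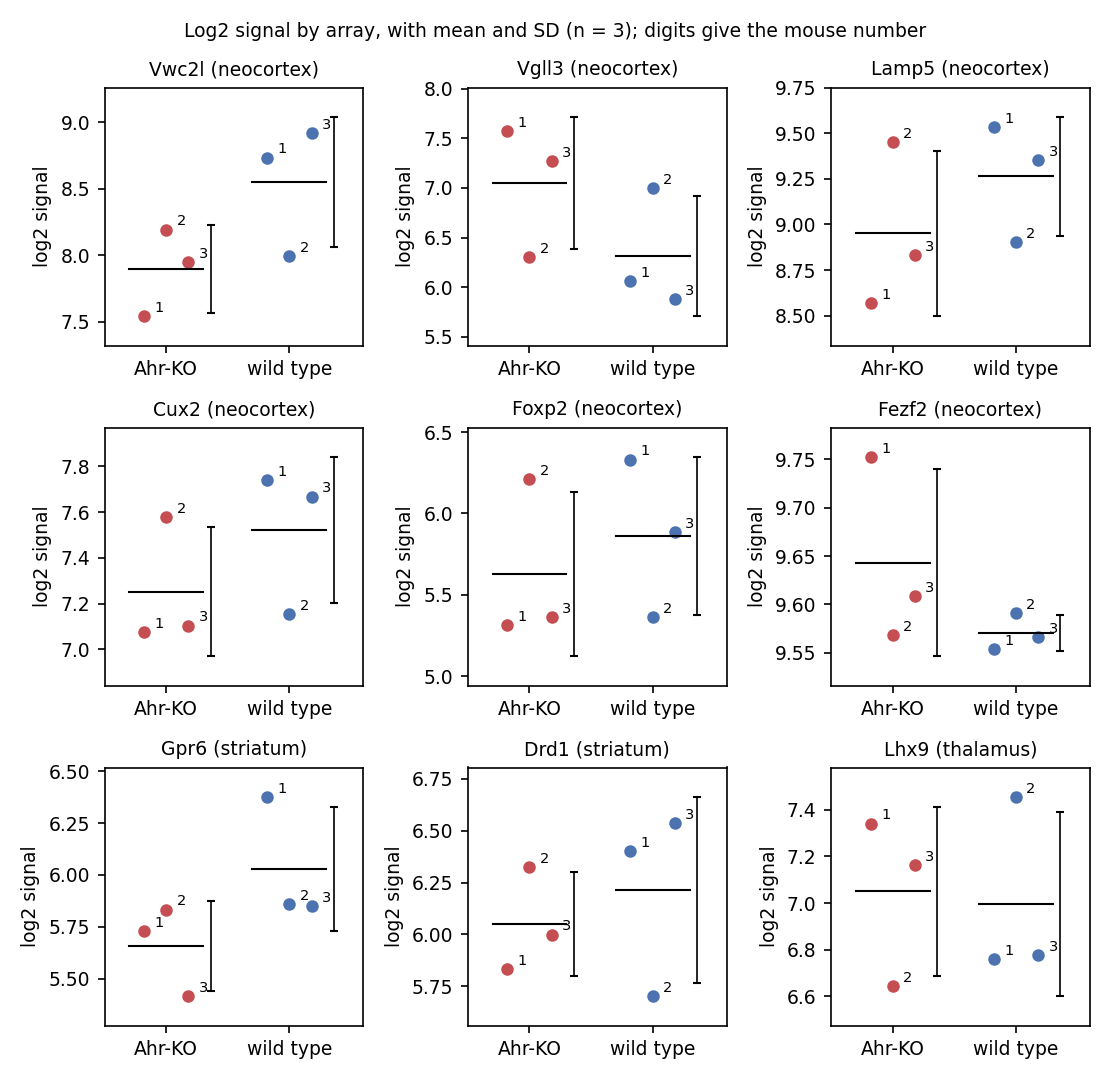
Log2 signal (vertical axis, a separate scale for each gene) of 9 marker genes on 3 Ahr-KO arrays (red, left) and 3 wild-type arrays (blue, right), with the mean as a line, the SD (n = 3) as a bar and the mouse number beside each point. In Lamp5, Cux2, Foxp2 and Drd1 wild-type array 2 lies with Ahr-KO arrays 1 and 3, and in Vgll3 and Lhx9 the order of the arrays is turned round.

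The division can be stated over the whole list, with the 3 arrays picked after their values were seen, so it is a description without a test. In 7 of the 11 neocortical members (Cux2, Lamp5, Tshz2, Vwc2l, Foxp2, Tle4 and Myl4) Ahr-KO array 2, wild-type array 1 and wild-type array 3 all lay above the other 3 arrays, and in 3 more (Vgll3, Fezf2 and Etv1) they all lay below. Together these are 10 of 11, and Rspo1 was the exception. The same held for 13.2% of all genes, 6.72% above and 6.43% below. It held for 3 of 13 thalamus and habenula genes (Ramp3 and Tac2 above, Lhx9 below) and for 2 of 8 striatal genes (Drd1 and Syndig1l above). The division was not confined to these regions. Of 16 genes of the hippocampal fields 6 showed it (Mpped1 and Wfs1 above, Amigo2, Fibcd1, Prox1 and Zbtb20 below). So did 3 of 8 choroid plexus genes (Kl, Otx2 and Sostdc1 below), but 0 of 9 oligodendrocyte genes. The steps were small for Tle4, Fezf2 and Etv1, whose whole ranges were 0.26, 0.20 and 0.37 log2. On one side stood 1 Ahr-KO and 2 wild-type arrays, and on the other 2 Ahr-KO arrays and 1 wild-type array.

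The spread between mice of one genotype was wide in the neocortical list, while the striatal median was close to that of all genes. The SD within genotype, pooled over both, had a median of 0.30 log2 in the neocortical list, 0.15 in the thalamus and habenula list and 0.11 in the striatal list, beside 0.11 over all genes. It was at or above 0.2 in 6 of 11 neocortical genes, 3 of 13 thalamus and habenula genes and 3 of 8 striatal genes, against 13.7% of all genes. Vgll3 had an SD of 0.63, above that of 99.9% of genes or equal to it, Foxp2 0.50 (99.7%), Vwc2l 0.42 (99.3%) and Lamp5 0.39 (99.2%). Lhx9 stood at 0.38, Drd1 at 0.36 and Syndig1l at 0.34. The difference between genotypes was larger than this SD in 8 of the 32 members, against 32.1% of all genes.

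**Figure D4:**
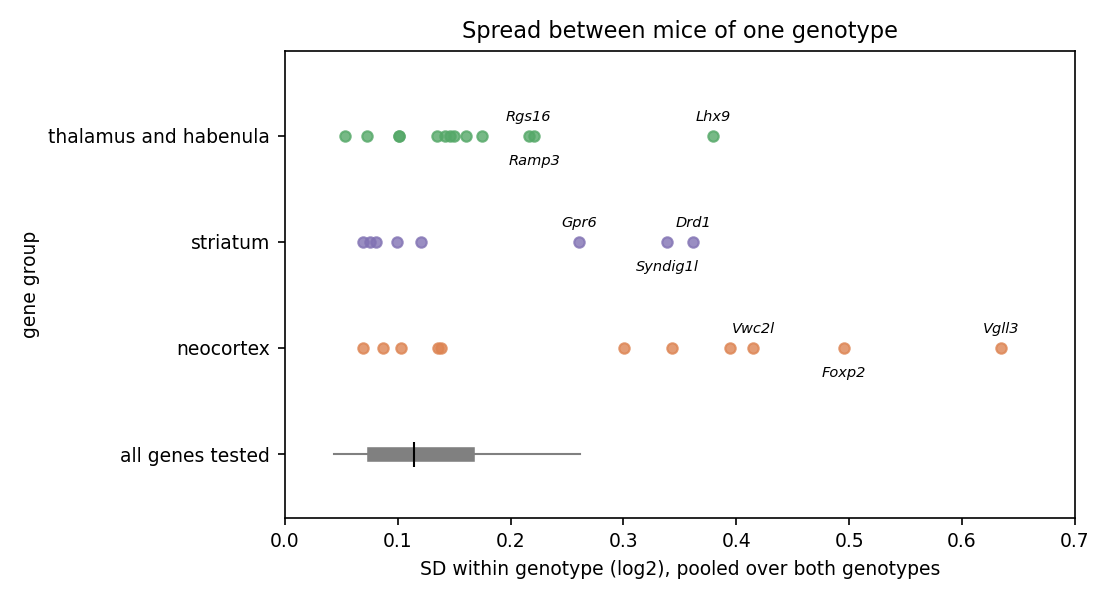
SD within genotype (log2, horizontal axis) of each marker gene, by region, with the widest 3 of each region named. The grey line spans the 5th to the 95th percentile of all genes tested, the thick part the quartiles and the tick their median (0.11). Beyond the line lie 6 neocortical genes, with Vgll3 at 0.63, and also Lhx9 of the thalamus list and Drd1 and Syndig1l of the striatal list. Gpr6 of the striatal list lies about at its end.

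A score per array was the mean over a list of the log2 value minus each gene's mean. Among the members it showed the same division for neocortex and striatum but not for thalamus and habenula. The neocortical score averages the values that the division was picked from, so it is no separate support. For neocortex it was -0.13, 0.06 and -0.06 on the Ahr-KO arrays and 0.16, -0.12 and 0.09 on the wild-type arrays, so the genotypes overlapped. For striatum it was -0.10, 0.06 and -0.02 in Ahr-KO and 0.07, -0.08 and 0.08 in wild type, with the same 3 arrays above 0. Of the 8 striatal members only Drd1 and Syndig1l, both wide in spread, showed the division singly. The further striatal genes listed below did not show it, at -0.03, 0.02 and -0.02 in Ahr-KO and -0.01, 0.03 and 0.01 in wild type. The further thalamus and habenula genes did, at -0.02, 0.00 and -0.02 in Ahr-KO and 0.05, -0.06 and 0.05 in wild type. For thalamus and habenula it stayed between -0.03 and 0.05 in Ahr-KO and between -0.02 and 0.00 in wild type, the narrowest of the 3. Averaging puts Vgll3 against the genes that run the other way, so the neocortical score understates the spread of single genes.

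**Figure D5:**
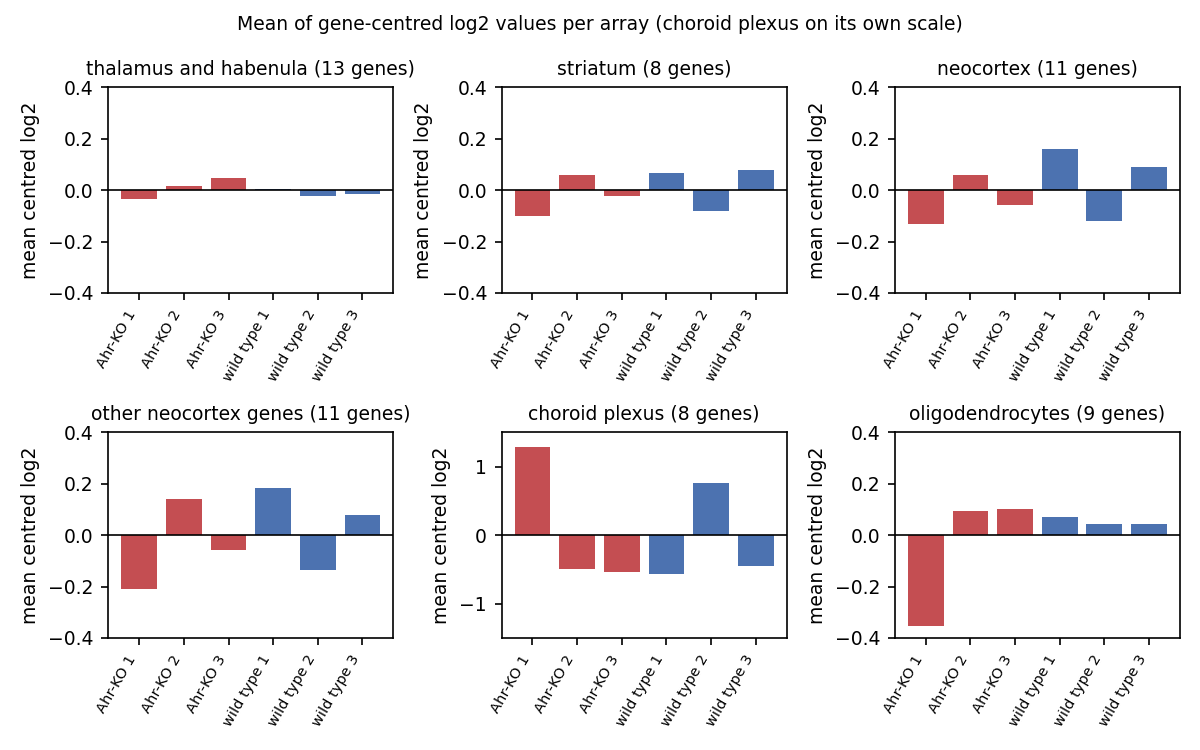
Mean of gene-centred log2 values (vertical axis) on each of 3 Ahr-KO (red) and 3 wild-type (blue) arrays for the 3 marker lists, another list of neocortical genes, choroid plexus genes and oligodendrocyte genes. Both neocortical lists are above 0 on Ahr-KO array 2 and wild-type arrays 1 and 3, choroid plexus genes are high on Ahr-KO array 1 and wild-type array 2, and oligodendrocyte genes are low on Ahr-KO array 1.

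Further genes of the same regions were listed beside the members. Of 11 measured neocortical genes 0 had an unadjusted p under 0.05 with limma, and the median difference was -0.10. The lowest p belonged to Rorb of layer 4 (0.15 ± 0.09, SE), Hs3st4 (-0.13 ± 0.09), Deptor (-0.14 ± 0.10) and Ccn2 of layer 6b (-0.27 ± 0.21). Ccn2 read 6.98, 7.67 and 7.34 in Ahr-KO and 7.81, 7.19 and 7.80 in wild type, so the same arrays were high as for Cux2. So they were for Cplx3, a complexin also found in layer 6b, at 6.19, 7.44 and 6.81 in Ahr-KO and 7.46, 6.38 and 7.41 in wild type, and for the T-box factor Tbr1, at 7.90, 8.64 and 8.16 in Ahr-KO and 8.73, 8.03 and 8.38 in wild type. Cplx3 and Tbr1 were named after their values were seen. In this list 5 genes had those 3 arrays on top and 1, Crym, had them at the bottom.

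Of 12 further thalamus and habenula genes 0 had an unadjusted p under 0.05 with limma, with Rora at -0.19 ± 0.08, Calb2 at 0.31 ± 0.15, Ntng1 at -0.19 ± 0.09 and Adarb1 at -0.12 ± 0.07 (SE). Tcf7l2, a transcription factor that marks most of the adult thalamus, differed by 0.09 ± 0.10, and Slc17a6, the vesicular glutamate transporter VGLUT2, by -0.41 ± 0.27, both named after their values were seen. Slc17a6 read 7.62, 8.40 and 7.91 in Ahr-KO and 8.51, 7.82 and 8.83 in wild type, in the array order of the neocortical genes. Of 12 further striatal genes 1 was higher and 1 lower at an unadjusted p under 0.05, against 3.53% and 2.65% of all genes. Penk, the enkephalin precursor of indirect-pathway neurons, read 8.40, 8.63 and 8.59 in Ahr-KO and 8.73, 8.96 and 9.07 in wild type, with no overlap. It was 1.30-fold lower in Ahr-KO (-0.38 ± 0.11, SE; limma adjusted p = 0.770). Six3, a homeobox factor, differed by 0.16 ± 0.07, Scn4b, a sodium channel subunit, by -0.30 ± 0.17 and Actn2 by 0.24 ± 0.18 (SE).

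Genes of other tissues and of the hippocampal fields also differed between these arrays. Of 10 choroid plexus genes 8 were measured, and all 8 were highest on Ahr-KO array 1. None of them had an unadjusted p under 0.05 with limma, the lowest being that of Sostdc1 (0.31 ± 0.35, SE; unadjusted p = 0.407). Their score ran from -0.55 to 1.29 in Ahr-KO and from -0.57 to 0.76 in wild type, with Ttr at 13.15, 9.06 and 8.64 in Ahr-KO and 8.90, 12.64 and 9.03 in wild type. No gene can be called absent from log2 signals, and the lowest of these markers, Clic6, read 4.15. Ahr-KO array 1 and wild-type array 2, which were high in choroid plexus genes, read 7.08 and 7.16 for Cux2. Ahr-KO array 3 read 7.10 for Cux2 and had a choroid plexus score of -0.55. All 9 measured oligodendrocyte genes were lowest on Ahr-KO array 1, with a score from -0.36 to 0.10 in Ahr-KO and from 0.04 to 0.07 in wild type. At an unadjusted p under 0.05 with limma 0 of these 9 were higher and 1 was lower, against 2.65% of all genes lower. It was Ermn, a cytoskeletal protein of myelinating cells, at -0.34 ± 0.14 (SE; limma unadjusted p = 0.0404, adjusted p = 0.806). Next by p came Aspa (-0.25 ± 0.14), Bcas1 (-0.17 ± 0.13) and Mbp, myelin basic protein (-0.13 ± 0.11, SE). Without Ahr-KO array 1 and wild-type array 2 the median difference of the neocortical members was -0.18. Of these members 1 was higher and 2 were lower at an unadjusted p under 0.05 with limma, against 6.05% of all genes. Both arrays left out stood on the same side of the division described above, and wild-type array 2 was the only wild-type array there. The run thus cannot be read apart from that division. Of the 16 genes of the hippocampal fields 3 were higher and 0 lower at an unadjusted p under 0.05 with limma. The shares over all genes were 3.53% higher and 2.65% lower. The 3 genes were Stxbp6 (0.25 ± 0.07), Trpc6 (0.28 ± 0.09) and Prox1 (0.28 ± 0.10, SE), and the list was not tested. Wfs1 of CA1 neurons read 9.75, 10.45 and 10.16 in Ahr-KO and 10.72, 10.17 and 10.59 in wild type, high on the same arrays as Cux2. Amigo2, a cell adhesion gene enriched in CA2 and named after its values were seen, read 7.82, 7.16 and 7.73 in Ahr-KO and 6.99, 7.90 and 7.03 in wild type, high on the same arrays as Vgll3. The part that the makeup of the dissected tissue has in these values was not tested.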

How the data were processed

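Per the labels, Trizol was used for extraction and the GeneChip WT PLUS kit for labelling, and RMA and Affymetrix Expression Console made the deposited log2 values, per the submitters' processing notes. RMA normalizes the arrays together and tends to compress fold changes. The sources used here give no version, annotation or genome build. Of 41345 rows, 23521 carried 1 symbol, 1814 several and 16010 none. Entrez IDs gave current symbols from RefSeq GRCm38.p6 (23328 rows matched), and the brightest probe set of a gene was used. The test between genotypes used lmFit and eBayes of limma 3.58.1 (R 4.3.3) on 6 arrays without covariates. Benjamini-Hochberg adjustment ran over 22180 genes, with a threshold of 0.05. The procedure was tested on simulated data with independent noise and differences larger than that of any member. That run does not cover differences of the members' size. Between 3 and 3 mice an exact permutation test cannot go below 0.1. The number of arrays limits precision, and batches were not given. The members and the 6 other lists were chosen with earlier results of these data known, so no list was tested. All members are accounted for. Values on every array are given for the 5 with the lowest p and the 3 with the widest range in each region and for Drd1, Drd2, Cux2 and Fezf2. Up to 4 genes of each other list were named by lowest p. Figures were drawn with matplotlib 3.10.9. Alternatives covered the variance model, array weights, scaling, dim probe sets, averaging probe sets, a replicate block and leaving out arrays.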

Additional observations from a re-analysis of the deposited data

How the results depend on the processing

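Over 14 alternatives no member passed an adjusted p under 0.05 with limma, and the lowest was 0.591. When the prior variance followed intensity 2 genes passed over the whole table, neither of them a member, and 0 did in the other alternatives. The median difference of thalamus and habenula members was 0.0439 with array weights and ran from -0.0252 to 0.0510 when 1 array was left out. For neocortex this range was -0.19 to 0.00 and for striatum -0.01 to 0.04. Of 11 neocortical members 1 was higher and 3 were lower at an unadjusted p under 0.05 without Ahr-KO array 2 (7.22% of all genes) and likewise without wild-type array 2 (6.22%), and 0 were without Ahr-KO array 1, wild-type array 1 or wild-type array 3. For thalamus and habenula the count was 0 without Ahr-KO array 2, and for striatum it was 2 without wild-type array 2. Of striatal members Gpr6 was lower at an unadjusted p of 0.0458 with the intensity trend, 0.0314 with array weights, 0.0382 after quantile normalization again, 0.0448 after median centring and 0.0278 with the replicate block. The unadjusted p over the alternatives ran from 0.0051 to 0.105 for Tnnt1, 0.00578 to 0.114 for Gbx2 and 0.00056 to 0.103 for Vwc2l. The sign of the difference was kept by 17 of 32 members in every alternative run for them (13 for the 12 members below the median gene level, 14 for the others), and the other 15 changed sign in at least 1, with differences from -0.23 for Foxp2 to 0.07 for Tac1 over all arrays. With array weights Ptpn3 turned to 0.026, Tac2 to -0.0223 and Gpr151 to 0.0447. With quantile normalization again Synpo2 turned to -0.0094 and Ptpn3 to 0.0165. Without both Ahr-KO array 1 and wild-type array 2 Rgs16 turned to 0.0301, Synpo2 to -0.02, Ptpn3 to 0.0891, Zic1 to -0.0009, Tac2 to -0.0325, Gpr151 to 0.0191 and Syndig1l to 0.011. With 1 array left out the log2 difference ran from -0.0923 to 0.28 for Lhx9, -0.18 to 0.0895 for Rgs16, -0.0643 to 0.0626 for Ptpn3, -0.0469 to 0.12 for Pou4f1, -0.14 to 0.051 for Gpr151, -0.28 to 0.13 for Syndig1l, -0.0937 to 0.0362 for Tle4, -0.0988 to 0.0871 for Tac2, -0.0252 to 0.0618 for Synpo2, -0.0417 to 0.13 for Zic1, -0.0050 to 0.12 for Tac1, -0.082 to 0.0259 for Isl1, -0.0872 to 0.0125 for Rspo1, -0.52 to 0.0044 for Foxp2 and -0.42 to 0.0001 for Drd1. The causes were not tested. The replicate numbers name different mice. Arrays with the same number had deviations correlated at -0.153, -0.215 and 0.0524 across genes, and 2 of 6 arrays correlated best with their own number. With the number as a replicate block 0 genes passed over the whole table, and the median differences of the members were 0.01, 0.01 and -0.11. At an unadjusted p under 0.05 with limma in that run 2 members were higher and 1 lower for thalamus and habenula. For striatum 1 was lower and for neocortex 1 was lower, against 5.06% of all genes in either direction.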
